A study of Mus musculus with 24 samples.

Results

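Fibrillar collagens build the tensile fibres of the extracellular matrix. This account covers 10 genes, chosen by symbol: 7 fibrillar collagen genes (Col1a1, Col1a2, Col3a1, Col5a1, Col5a2, Col5a3 and Col11a1), 2 crosslinking enzymes (Lox and Loxl2) and 1 collagen chaperone (Serpinh1), of 55288 genes counted in either of the deposited tables. RNA-seq was performed on 24 libraries of the mouse mammary tumor lines D2.1, which is dormancy competent, and D2A1, which is proliferative, both derived from D2 hyperplastic alveolar nodules of BALB/c mice. There were 3 libraries of each line in culture, 4 tumors of each line grown in the mammary fat pad of immunocompetent BALB/c mice, and 5 of each line grown in SCID-beige mice, which lack T and B cells and have defective NK cells. Female hosts of 8 to 12 weeks of age received 1000000 cells, and tumors were collected at about 500 mm3. In another experiment of the study, D2A1 tumors had to be collected earlier than D2.1 tumors to match their size. Time in the host may thus differ between the lines here, and cannot be told apart from line. Tumors were sequenced as whole tissue, so that transcripts of tumor cells and of host stroma were counted together, and a shift in the number of cells of a type cannot be told apart from a shift in RNA per cell. Each line is a single established line, and the libraries of a line are repeats of it. Per the study's methods, the RNA of a tumor library came from an individually frozen tumor. Nothing in the sources used here says that the libraries of cultured cells came from separate cultures, so in culture p-values measure a spread between libraries that may be technical.

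Fibrillar procollagen chains fold into triple helices in the endoplasmic reticulum, where Serpinh1 (HSP47) holds the helix during export, and are trimmed and assembled into fibrils outside the cell. Type I collagen contains chains of Col1a1 and Col1a2, type III collagen is made of Col3a1 chains, and type V collagen, which combines chains of Col5a1, Col5a2 and Col5a3, sets the start and width of type I fibrils, as does the related type XI chain Col11a1. Lox and Loxl2 oxidise lysines of collagen and so start the covalent crosslinks that stiffen the matrix. In the mammary gland these genes are best known from stromal fibroblasts.

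The libraries held between 16837260 and 24818234 counted reads in culture and between 13566949 and 18355153 in tumors. Levels are given as counts per 1000000 counted reads of the library (CPM), at which 3 counts, the lowest level read here as detected, equal 0.121 to 0.178 CPM in culture and 0.163 to 0.221 CPM in tumors, a limit that covers counting error only. The 10 genes together held a median of 0.449% of the counts in cultured D2.1 and 0.140% in cultured D2A1 cells. They held 1.63% in D2.1 and 0.535% in D2A1 tumors of BALB/c mice, and 1.26% and 0.507% in those of SCID-beige mice. The share of every D2.1 library lay above that of every D2A1 library of the same setting. The first D2.1 BALB/c tumor held 349 CPM of milk protein transcripts summed over 4 genes, where the other tumors held at most 0.932 CPM, and also the highest adipocyte sum (190.1 CPM) and skeletal muscle sum (317 CPM). The fourth D2.1 BALB/c tumor held 115 CPM of skin keratinocyte transcripts. The third D2.1 SCID-beige tumor stood at the other end, with an adipocyte sum of 0.349 CPM. Values without these tumors are given beside results that they move.

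**Figure D1:**
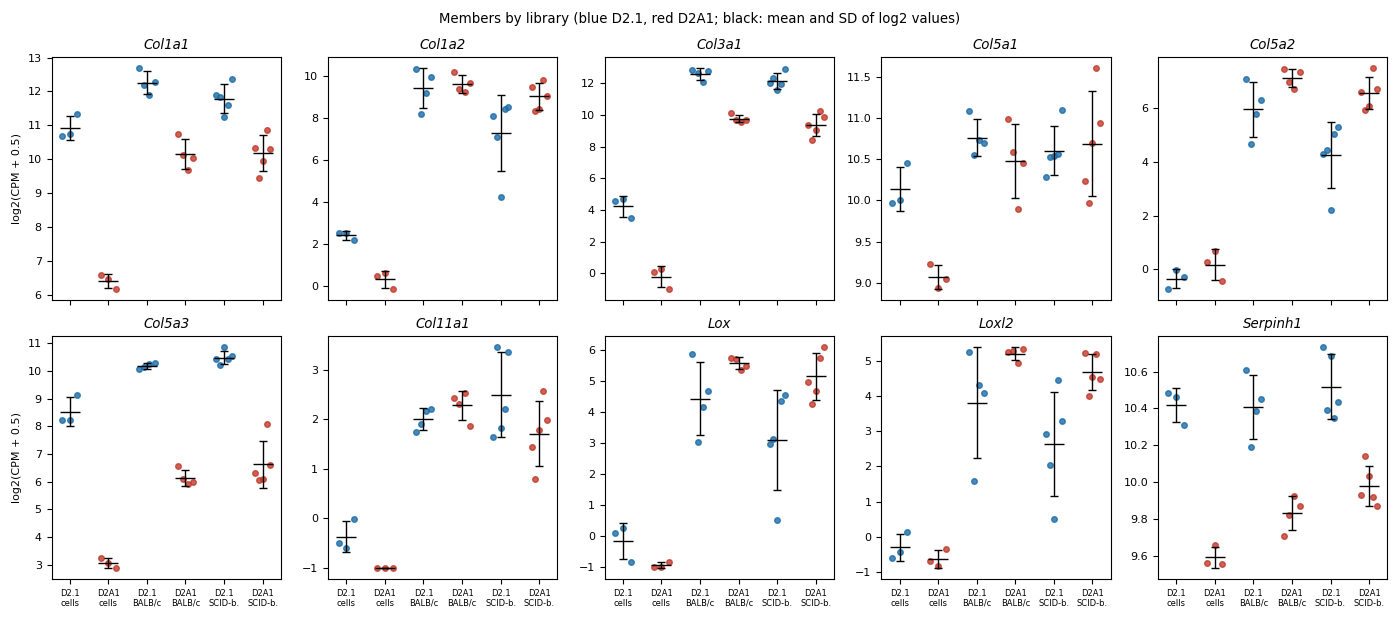
Level of each of the 10 genes in every library, as log2 of CPM plus 0.5 (y axis, own scale per gene), by group (x axis; SCID-b. is SCID-beige), with D2.1 in blue, D2A1 in red and the mean and SD of the log2 values in black. Col1a1, Col5a1, Col5a3 and Serpinh1 were already abundant in cultured D2.1 cells, whereas Col1a2, Col5a2, Col11a1, Lox and Loxl2 rose from at most 5.32 CPM in culture.

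The promoters of 4 genes that behaved differently are shown first, because Col1a2 and Col3a1 were low in culture and high in tumors while Col5a3 followed the line and Serpinh1 varied little. RefSeq sequences from 250 bases before to 50 after the start, on GRCm38.p6 and 5′ to 3′ on the coding strand, were at hand for 6 of the 10 genes. They are printed for Col1a2 (chr6:4505368-4505667, plus strand), Col3a1 (chr1:45311288-45311587, plus strand), Col5a3 (chr9:20815018-20815317, minus strand) and Serpinh1 (chr7:99353190-99353489, minus strand). Capitals mark matches on either strand to the TATA box (letters TATAAA), the CCAAT box (letters CCAAT), the GC box (letters GGGCGG) or the core of a heat shock element (letters GAANNTTC), none of which overlapped another.
Col1a2: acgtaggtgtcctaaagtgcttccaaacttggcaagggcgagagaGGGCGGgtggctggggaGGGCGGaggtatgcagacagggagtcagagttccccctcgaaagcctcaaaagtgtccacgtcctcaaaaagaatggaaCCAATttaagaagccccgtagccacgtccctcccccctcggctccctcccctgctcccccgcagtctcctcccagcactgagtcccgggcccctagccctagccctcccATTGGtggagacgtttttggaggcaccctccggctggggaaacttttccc
Col3a1: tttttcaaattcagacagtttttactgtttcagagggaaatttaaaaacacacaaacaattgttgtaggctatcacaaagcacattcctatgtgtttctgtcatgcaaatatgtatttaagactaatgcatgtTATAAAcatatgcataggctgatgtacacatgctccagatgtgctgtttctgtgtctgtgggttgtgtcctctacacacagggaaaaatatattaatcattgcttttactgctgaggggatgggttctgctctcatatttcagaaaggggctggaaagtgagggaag
Col5a3: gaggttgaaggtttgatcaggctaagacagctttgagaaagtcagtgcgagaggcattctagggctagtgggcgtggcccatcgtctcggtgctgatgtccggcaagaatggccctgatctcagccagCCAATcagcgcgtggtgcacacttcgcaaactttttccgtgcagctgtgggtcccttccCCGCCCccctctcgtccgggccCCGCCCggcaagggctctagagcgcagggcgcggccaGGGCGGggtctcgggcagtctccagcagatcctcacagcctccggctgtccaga
Serpinh1: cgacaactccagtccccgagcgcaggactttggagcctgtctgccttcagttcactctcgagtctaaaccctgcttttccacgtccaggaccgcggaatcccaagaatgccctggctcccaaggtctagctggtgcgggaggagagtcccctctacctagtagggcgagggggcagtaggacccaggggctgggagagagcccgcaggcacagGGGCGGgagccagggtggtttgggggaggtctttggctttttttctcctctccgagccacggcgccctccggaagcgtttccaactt
Col1a2 held 2 CCAAT boxes and 2 GC boxes, Col5a3 held 1 CCAAT box and 3 GC boxes, and Serpinh1 held 1 GC box. The Col3a1 window had no GC box and was the only one of these 4 with TATAAA. Its GC content was 37.7%, against 61% for Col1a2, 63.3% for Col5a3 and 62.3% for Serpinh1. Of 32851 promoters of this length, 37.4% held the CCAAT box, 35.7% the GC box, 13.6% the TATA box and 7.86% the heat shock element core, which was found in none of these 4 windows. These are matches of letters, not sites shown to be used.

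In cultured cells, the 5 collagen genes of the set that could be tested, and Serpinh1, were higher in D2.1 than in D2A1. Col1a1, which encodes the main chain of type I collagen, had 1654, 1714 and 2597 CPM in the D2.1 libraries and 96.4, 87.1 and 71.6 CPM in the D2A1 libraries. Col5a3, a minor chain of type V collagen, had 300.4, 299.9 and 556 CPM in D2.1 against 8.97, 7.99 and 6.94 CPM in D2A1. Both genes were separated between the lines by far more than the spread within a line. By edgeR's quasi-likelihood test with Benjamini-Hochberg adjustment over 12489 genes, the log2 fold change of D2.1 over D2A1 was 4.66 ± 0.24 (SE, adjusted p = 1.9e-06) for Col1a1 and 5.70 ± 0.27 (adjusted p = 1.5e-06) for Col5a3. These correspond to 25.3-fold and 52.1-fold. Col5a1, the chain that most type V collagen contains, was abundant in both lines, at 1143 ± 222 CPM (SD, n = 3) in D2.1 and 540.0 ± 55.8 CPM in D2A1. Its log2 fold change was 1.20 ± 0.17 (adjusted p = 0.00047). The chaperone Serpinh1 had 1431, 1411 and 1270 CPM in D2.1 and 755, 806 and 752 CPM in D2A1, a log2 fold change of 0.96 ± 0.16 (adjusted p = 0.0012).

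The partner chains were scarce in the same cells. Col1a2, the second chain of type I collagen, had only 5.27, 5.32 and 3.99 CPM in D2.1 cells, from 103, 132 and 73 counted reads. Col1a1 was counted 32358, 42550 and 47470 times in those libraries. In D2A1 cells, Col1a2 had 0.891, 1.04 and 0.405 CPM. For every 100 reads of Col1a1 there were thus 0.318, 0.310 and 0.154 reads of Col1a2 in the D2.1 cultures, and between 0.565 and 1.20 in the D2A1 cultures. Col3a1, the type III chain, had 23.0, 24.7 and 10.6 CPM in cultured D2.1 against 0.535, 0.695 and 0 CPM in cultured D2A1 cells. Col1a2 and Col3a1 were nevertheless higher in D2.1, by log2 fold changes of 2.76 ± 0.39 (adjusted p = 0.00053) and 5.69 ± 0.67 (adjusted p = 0.00019). Col5a2, the usual partner of Col5a1 in type V collagen, had 0.102, 0.484 and 0.328 CPM in D2.1 and 0.713, 1.10 and 0.231 CPM in D2A1. Lox had 0.562, 0.685 and 0.0547 CPM in D2.1 and was at or below the limit of 3 counts in every D2A1 library. Col11a1 had 0.161 to 0.492 CPM in D2.1 and was listed at 0 in all D2A1 libraries, and Loxl2 had 0.0579 to 0.602 CPM over both lines. These 4 genes did not pass the filter on low counts, so 6 of 10 were tested. DESeq2 and edgeR without that filter each called 8 of the 10 genes, the additional ones being Col11a1 (adjusted p = 0.018 by DESeq2 and 0.012 by edgeR) and Lox (0.019 and 0.0099), both higher in D2.1.

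All 6 tested genes passed the threshold of 0.05 and were higher in D2.1. Across all genes tested, 24.2% were called higher and 20.7% lower. The share of higher calls among all calls was 54.0%, but 42.7% when libraries were scaled by their totals without TMM factors, which moved the median of all genes by -0.13 on the log2 scale. The median log2 fold change of the 6 genes was 3.71, against -0.02 for all genes. Passing the filter required counts in at least 1 line, so the median describes the tested genes only.

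Among genes that act on the same proteins, procollagen folding and modification enzymes were mostly higher in cultured D2.1 cells, with 13 of 18 called higher, 1 lower and 3 not called, while 1 was not tested. The largest rises were in Fkbp10, a prolyl isomerase of the endoplasmic reticulum (log2 fold change 4.68), P3h4 (3.22) and the prolyl 4-hydroxylase subunit P4ha3 (3.20). P3h2, a prolyl 3-hydroxylase, was lower (-2.90). Of the other crosslinking enzymes, Loxl3 (4.46), Loxl1 (3.97) and the transglutaminase Tgm2 (1.76) were higher and Loxl4 was not called (-0.54). Loxl3 stood at 190.0 ± 11.3 CPM (SD, n = 3) in the D2.1 cultures against 9.42 ± 1.63 CPM in the D2A1 cultures. Of the other fibrillar collagens, Col27a1 (4.27) and Col2a1 (3.72) were higher and Col11a2 lower (-1.01). Of collagen receptors, Itga11 (5.76) and Mrc2 (1.72), the endocytic collagen receptor, were higher in D2.1, and 5 of the 7 tested were not called. Of 8 procollagen processing genes, 5 were tested. The propeptidases Adamts2 (3.70) and Bmp1 (0.63) were higher in D2.1, whereas Pcolce2, an enhancer of propeptide cleavage, was lower, with 45.9 to 50.5 CPM in the D2A1 and at most 1 count in each of the D2.1 cultures. Of 7 fibril-binding proteoglycans, 3 were tested, of which Ogn (2.87) and Prelp were higher in D2.1 and Bgn lower (-3.42). Prelp had 25.8 to 91.5 CPM in D2.1 and 0.0579 to 0.356 CPM in D2A1. Of 8 fibril-associated collagens, 3 were tested and Col12a1 was higher in D2.1 (4.88), with none called lower.

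In tumors of BALB/c mice, Col1a1, Col3a1, Col5a3 and Serpinh1 were higher in D2.1 than in D2A1, and the other 6 genes were not called. Col1a1 had 6566, 4710, 3774 and 4959 CPM in D2.1 tumors and 1711, 1122, 827 and 1043 CPM in D2A1 tumors. Col3a1 had 7433, 6371, 4271 and 6992 CPM against 1115, 832, 755 and 830.0 CPM. Col5a3 had 1062, 1118, 1222 and 1243 CPM against 93.3, 67.4, 60.2 and 62.5 CPM. None of these 3 genes overlapped between the lines. Their log2 fold changes were 2.17 ± 0.24 (adjusted p = 9.5e-05), 2.91 ± 0.22 (adjusted p = 6.9e-06) and 4.11 ± 0.18 (adjusted p = 4.8e-07). Serpinh1 had 1563, 1166, 1336 and 1398 CPM against 834, 905, 970.2 and 934 CPM, also without overlap, and was 1.57-fold higher (log2 0.65 ± 0.14, adjusted p = 0.0059). Here and below, overlap is a description only, given without the share of all genes that did not overlap. Across all 14953 genes tested, 16.8% were called higher and 15.8% lower, and the median log2 fold change was 0.18 for the 10 genes and -0.02 for all. With the first and the fourth D2.1 tumors left out, an alternative chosen after seeing the data, Serpinh1 was no longer called (0.51, adjusted p = 0.091).

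Col1a2, Col5a2, Lox and Loxl2 differed more among D2.1 tumors than between the lines in BALB/c mice. Col1a2 had 1288, 293, 586.5 and 1005 CPM in D2.1 tumors, and 1172, 673, 597 and 819 CPM in D2A1 tumors. Col5a2 had 137, 24.7, 54.4 and 78.0 CPM against 174, 125, 105 and 161 CPM. The second D2.1 tumor was lowest for both genes and the first was highest, and the lines overlapped. Lox had 58.0, 7.61, 17.5 and 24.9 CPM in D2.1 tumors against 53.4, 52.1, 40.7 and 44.7 CPM. Loxl2 had 37.5, 2.48, 19.4 and 16.4 CPM against 37.6, 38.3, 29.8 and 39.8 CPM. Here too the second D2.1 tumor was lowest and the first highest, while the D2A1 tumors lay within 1.31-fold for Lox and 1.34-fold for Loxl2. Lox was not called (-0.76, adjusted p = 0.24) and neither was Loxl2 (-0.88, adjusted p = 0.25). The log2 fold change of Col1a2 was 0.04 (95% interval -0.81 to 0.89), which leaves room for a difference of either sign, and that of Col5a2 was -0.87 (-1.77 to 0.03, adjusted p = 0.13). Replicate numbers, which paired the libraries here, used as a block brought Col5a2 past the threshold (-1.08, adjusted p = 0.032). Without the first D2.1 tumor, the one with milk protein transcripts and the highest skeletal muscle sum, Col5a2 (-1.33, adjusted p = 0.022) and Lox (-1.42, adjusted p = 0.016) were both called lower in D2.1. Without the first and the fourth, they were called at -1.78 (adjusted p = 0.0075) and -1.87 (adjusted p = 0.0057).

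In SCID-beige mice the genes split in 2 directions. Col1a1, Col3a1, Col5a3 and Serpinh1 were again higher in D2.1 tumors, and Col5a2, Lox and Loxl2 were lower. Col1a1 had 3793, 3674, 2422, 3078 and 5314 CPM in D2.1 tumors and 1278, 701, 987, 1877 and 1251 CPM in D2A1 tumors. Col3a1 had 4172, 5064, 3024, 4054 and 7802 CPM in D2.1 tumors and 649.7, 346, 517, 1197 and 939 CPM in D2A1 tumors. Col5a3 had 1361, 1171, 1848, 1372 and 1467 CPM against 79.8, 65.6, 67.4, 272 and 97.6 CPM. The lines did not overlap for any of these genes, nor for Serpinh1, which lay at 1305 to 1701 CPM in D2.1 and 935 to 1131 CPM in D2A1. The log2 fold change was 2.80 ± 0.33 (adjusted p = 3e-05) for Col3a1 and 3.70 ± 0.37 (adjusted p = 6.7e-06) for Col5a3, 1.65 ± 0.26 (adjusted p = 0.00031) for Col1a1, and 0.59 ± 0.14 (adjusted p = 0.0065) for Serpinh1.

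In the opposite direction, Col5a2 had 19.4, 21.2, 4.08, 32.3 and 39.3 CPM in D2.1 tumors and 98.2, 61.4, 67.0, 179 and 104 CPM in D2A1 tumors, without overlap. Its log2 fold change was -2.06 ± 0.46 (adjusted p = 0.0037). Lox, which had 7.31, 8.16, 0.932, 20.2 and 22.8 CPM against 30.9, 18.8, 25.2, 53.3 and 67.9 CPM, overlapped between the lines. So did Loxl2, at 7.07, 3.57, 0.932, 21.5 and 9.34 CPM against 36.5, 15.6, 22.6, 36.1 and 21.6 CPM. Lox and Loxl2 passed the threshold narrowly, at -1.64 ± 0.59 (adjusted p = 0.047) and -1.58 ± 0.57 (adjusted p = 0.049), and neither was called by DESeq2 (adjusted p = 0.066 and 0.069). Both also lost the call without the first or the second D2.1 tumor or without the first, the third, the fourth or the fifth D2A1 tumor, and Loxl2 without the fifth D2.1 tumor, with log2 values from -1.37 to -1.78 for Lox and from -1.40 to -1.65 for Loxl2. Col1a2, at 274, 138, 18.5, 349.6 and 373 CPM in D2.1 against 716, 325, 349, 887 and 539 CPM in D2A1, was not called (-1.22, adjusted p = 0.11). Without the third D2.1 tumor, which was lowest for these 4 genes, 7 of the 10 were again called, with Col5a2 at -1.79 (adjusted p = 0.00089), Lox at -1.34 (0.029) and Loxl2 at -1.28 (0.042), while Col1a2 was at -0.92 (0.054). Across 14355 genes, 17.2% were called higher and 14.8% lower, and the median log2 fold change was 0.25 for the 10 genes and 0.02 for all genes. Col11a1 stayed low in all 18 tumors, at 1.24 to 10.5 CPM, and was called between the lines in neither host (-0.25, adjusted p = 0.56 in BALB/c mice and 1.05, adjusted p = 0.10 in SCID-beige mice). Col5a1 had 1248, 1477, 1490.3, 1511 and 2198 CPM in D2.1 and 1207, 1001, 1664, 3110 and 1965 CPM in D2A1 SCID-beige tumors, which overlapped. Col5a1 was the collagen with the smallest difference between the lines in these tumors (-0.10, 95% interval -0.65 to 0.45).

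**Figure D2:**
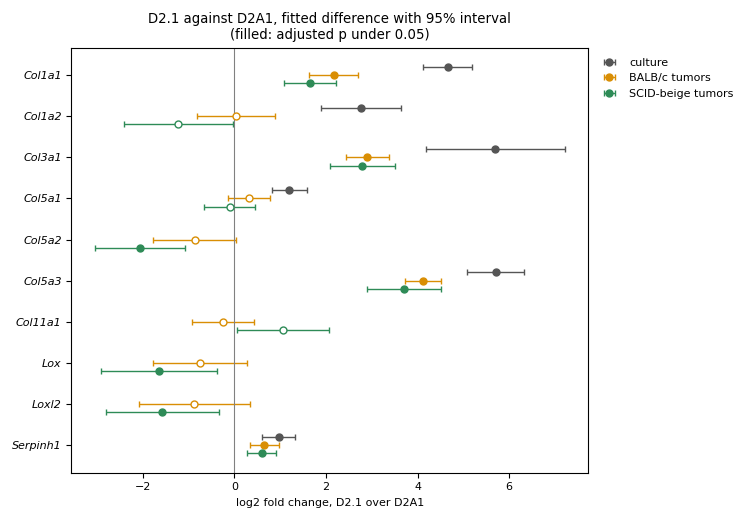
Fitted log2 fold change of D2.1 over D2A1 (x axis) for each gene (y axis) in culture, BALB/c tumors and SCID-beige tumors, with 95% intervals and filled points where the adjusted p was under 0.05; genes without a culture point were not tested there. Col1a1, Col3a1, Col5a3 and Serpinh1 lie to the right of 0 in all 3 settings, and Col5a2, Lox and Loxl2 lie to the left in tumors.

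Other matrix genes differed between the tumors as well. Of 7 fibril-binding proteoglycans, 5 were higher in D2.1 tumors of either host, led in BALB/c mice by Aspn (log2 fold change 4.14), Prelp (3.63) and Ogn (3.23), while Bgn (biglycan) was lower in SCID-beige mice (-2.48). Of 18 folding and modification genes, 9 were higher and 1 lower in BALB/c mice, the last being the lysyl hydroxylase Plod2 (-0.88), and 6 were higher in SCID-beige mice. The highest in both hosts were P4ha3 (3.26 and 3.08) and Fkbp10 (2.91 and 2.92). Of other crosslinking enzymes, Loxl3 (1.28 and 1.11) and Loxl1 (1.36 and 0.89) were higher in D2.1 tumors and Tgm2 was lower (-1.01 and -1.13). Of procollagen processing genes, the N-propeptidase Adamts14 was higher in D2.1 tumors of both hosts (1.90 and 1.78), and Pcolce2 lower (-3.43 and -5.76). Adamts2, which removes the same propeptide, was lower in SCID-beige tumors (-1.29). Of other fibrillar collagens, Col27a1 (4.36 and 4.16) and Col24a1 (4.09 and 2.58) were higher in D2.1 tumors and Col11a2 lower (-1.57 and -2.16), and Col2a1 was counted at 19.9 to 147 CPM in D2.1 tumors and listed at 0 in every D2A1 tumor. Of fibril-associated collagens, Col14a1 was higher in D2.1 (1.54 and 1.13).

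Fibroblast markers moved with the line as well. The sum of 6 markers (Pdgfra, Dpt, Pi16, Clec3b, Fap and Thy1) was 670.5 to 882 CPM in D2.1 and 135 to 173 CPM in D2A1 tumors of BALB/c mice, and 368 to 912 CPM and 95.2 to 164 CPM in SCID-beige mice. Of these 6, 5 were called higher in D2.1 tumors grown in BALB/c mice and 3 of SCID-beige mice, the latter being Pdgfra (2.98), Dpt (3.58) and Fap (3.82). Pdgfra made up much of the sum, at 207 to 630.4 CPM in the D2.1 SCID-beige tumors, and was also counted in cultured D2.1 cells at 53.1 to 77.4 CPM. Fap was counted in cultured D2.1 cells at 1.53 to 2.15 CPM and in cultured D2A1 cells at no more than 0.116 CPM. Both Pdgfra (3.20) and Fap (4.99) were called higher in D2.1 in culture. Dpt, Pi16, Clec3b and Thy1 reached at most 0.767 CPM in culture. In SCID-beige mice, Thy1 had 14.6 to 50.5 CPM in D2.1 and 29.7 to 66.2 CPM in D2A1 tumors and was not called (-0.39), nor were Pi16 (0.44) and Clec3b (0.38). Of the leukocyte markers, Cd3e (3.04) and Adgre1 (0.80) were called higher in D2.1 tumors grown in BALB/c mice, and Ptprc (1.24) and Adgre1 (1.15) in SCID-beige mice. Ptprc had 28.5 to 95.5 CPM in D2.1 and 11.5 to 36.5 CPM in D2A1 tumors of SCID-beige mice, which overlapped. Endothelial markers moved the other way, at 48.2 to 122 CPM in D2.1 and 181 to 260 CPM in D2A1 tumors over both hosts. The part of these cells in the collagen differences was not tested.

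The proportion of the chains differed between the lines within each library, a measure that does not depend on library scaling. In D2A1 tumors of SCID-beige mice, 56.1, 46.4, 35.4, 47.2 and 43.1 reads of Col1a2 were counted per 100 reads of Col1a1. In D2.1 tumors, there were 7.22, 3.75, 0.764, 11.4 and 7.02. In BALB/c mice, D2A1 tumors had 60.0 to 78.5 and D2.1 tumors 6.22 to 20.3. No D2.1 tumor reached the lowest D2A1 tumor of its host. The mean difference of the log2 ratio of FPKM values was -3.36 in SCID-beige mice (exact 2-sided permutation test, p = 0.0079, adjusted p = 0.048 over 24 ratio comparisons, n = 5 and 5), and -2.73 without the third D2.1 tumor (adjusted p = 0.048). In BALB/c mice it was -2.31 (exact permutation p = 0.029, the smallest that 4 against 4 libraries allow, adjusted p = 0.057). In culture, where 3 against 3 libraries cannot give a p below 0.1, the difference was -1.79 (exact permutation p = 0.1, adjusted p = 0.13).

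In SCID-beige mice 3 further ratios passed, making 4 of 24 comparisons past the threshold. Col5a2 to Col5a1 was lower in D2.1 tumors by 2.27 on the log2 scale, or by 1.74 without the third D2.1 tumor, with 0.273 to 2.14 Col5a2 reads per 100 Col5a1 reads in D2.1 and 4.03 to 8.14 in D2A1. Col5a1 to Col1a1 was lower in D2.1 by 1.70, at 32.9 to 61.5 against 94.4 to 169 reads per 100. Col3a1 to Col1a1 was higher in D2.1 by 1.17, at 110.0 to 147 against 49.4 to 75.0 reads per 100. Each had p = 0.0079, the smallest that 5 against 5 libraries allow, and an adjusted p of 0.048 by the exact permutation test, and their lines did not overlap. In BALB/c mice the log2 differences were -1.45 for Col5a2 to Col5a1, -1.83 for Col5a1 to Col1a1 and 0.70 for Col3a1 to Col1a1, also without overlap. Each was at the smallest p that 4 against 4 libraries allow (exact permutation p = 0.029, adjusted p = 0.057). Serpinh1 to Col1a1 was lower in D2.1 SCID-beige tumors by 1.07 with overlapping lines (exact permutation p = 0.016, adjusted p = 0.054). In BALB/c mice its log2 difference was -1.53 without overlap (exact permutation p = 0.029, adjusted p = 0.057). Between hosts, the D2A1 tumors of BALB/c mice had more Col1a2 per Col1a1 (log2 difference 0.62) and more Col5a2 per Col5a1 (0.76) without overlap, at an exact permutation p of 0.016 and adjusted p of 0.054 for each.

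**Figure D3:**
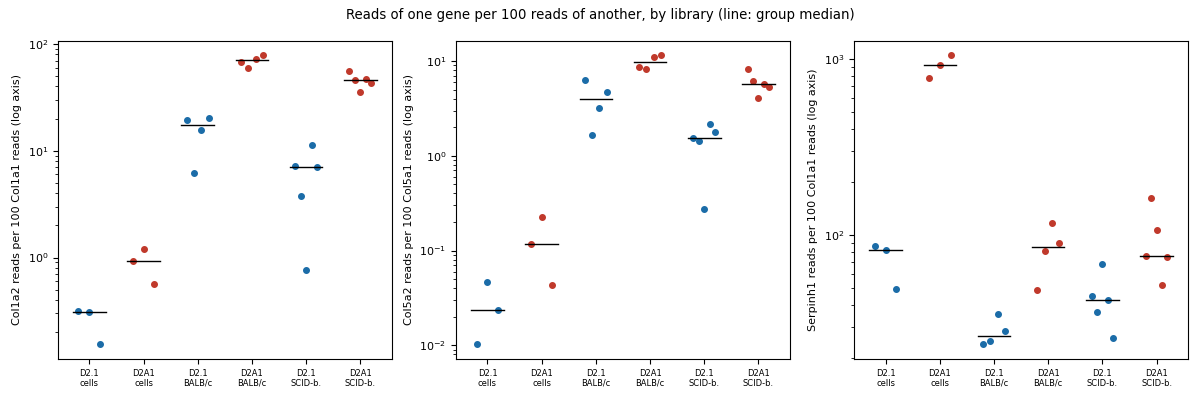
Reads of Col1a2 per 100 Col1a1 reads, Col5a2 per 100 Col5a1 reads and Serpinh1 per 100 Col1a1 reads (y axes, logarithmic) in each library by group (x axis; SCID-b. is SCID-beige), with the group median as a line. The ratios of Col1a2 to Col1a1 and of Col5a2 to Col5a1 were lower in D2.1 than in D2A1 tumors of the same host. For both ratios the third D2.1 SCID-beige tumor lay lowest of all tumors, at 0.764 and 0.273 reads per 100.

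Host immunity was compared within each line, as the difference of BALB/c from SCID-beige tumors. None of the 10 genes was called by edgeR in D2.1 tumors or in D2A1 tumors, and none by DESeq2. At an unadjusted p under 0.05 there were 2 in D2.1 tumors and 0 in D2A1 tumors. Of all genes tested, 1489 of 14929 and 1472 of 14572 reached that unadjusted level. After adjustment, 0.891% of all genes were called for D2.1 and 1.17% for D2A1. The 2 of the 10 genes at the unadjusted level were Col1a2 (log2 fold change 1.78, 95% interval 0.38 to 3.18, adjusted p = 0.31) and Col5a2 (1.66, 0.46 to 2.86, adjusted p = 0.25), for which levels overlapped between hosts. Without the third SCID-beige tumor they were 1.48 and 1.39, and without the first and the fourth BALB/c tumors 0.92 and 0.75, none of them called. The interval of Serpinh1 in D2.1 tumors was -0.42 to 0.23 around -0.10. In D2A1 tumors the intervals of Col1a1 (-0.08, -0.65 to 0.49) and Col3a1 (0.26, -0.37 to 0.88) did not reach a 2-fold change in either direction. Whether the host effect differed between the lines was tested by the interaction of line and host, in which 0 of the 10 genes and 0.0187% of 16036 genes were called. At an unadjusted p under 0.05 only Col11a1 of the 10 genes passed (-1.31, adjusted p = 0.57), where 1355 of all 16036 genes did. DESeq2 called none of the 10 genes. Of the lists of matrix genes, Col14a1 (0.87, adjusted p = 0.026), a fibril-associated collagen, was the only gene called in D2A1 tumors, and none was called in D2.1 tumors.

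Between cultured cells and SCID-beige tumors, both lines gained the chains that were scarce in culture. The cell and tumor counts were deposited in separate tables, which differ in the genes listed and in the gene lengths behind their FPKM values. The setting and the table thus cannot be told apart. In D2.1, Col3a1 rose from 10.6 to 24.7 CPM in culture to 3024 to 7802 CPM in tumors, a log2 fold change of 7.79 ± 0.51 (adjusted p = 6.5e-07). Col5a2 rose by 6.04 ± 0.80 (adjusted p = 0.00012) and Col1a2 by 5.42 ± 0.88 (adjusted p = 0.00051). Lox (4.55), Loxl2 (4.56), Col11a1 (4.27), Col5a3 (1.79) and Col1a1 (0.75, adjusted p = 0.026) also rose. Col1a1 was no longer called without the first (0.72, adjusted p = 0.053) or the fifth tumor (0.59, adjusted p = 0.050), or without the first (0.64, adjusted p = 0.12) or second culture (0.69, adjusted p = 0.097). Col5a1 (0.34, adjusted p = 0.17) and Serpinh1 (-0.04, 95% interval -0.40 to 0.32) were not called. Thus 8 of 10 genes were higher and 0 lower, where 30.8% of 14111 genes were called higher and 22.3% lower.

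In D2A1, Col3a1 rose by 10.67 ± 0.72 (adjusted p = 4.2e-07), from 0 to 0.695 CPM in culture to 346 to 1197 CPM in tumors. Col1a2 rose by 9.39 ± 0.54 (adjusted p = 1.3e-07), from at most 1.04 CPM to 325 to 887 CPM. Against a culture at or below 3 counts in every library, Lox was at least 224-fold higher and Col11a1 at least 17.4-fold higher in tumors, with the bound set at 3 counts per library. Loxl2 (7.26), Col5a2 (7.11), Col5a3 (3.76), Col1a1 (3.74) and Col5a1 (1.62) rose as well. Serpinh1 was not called (0.30, adjusted p = 0.10), though it was with library totals without TMM factors (0.40, adjusted p = 0.019). Thus 9 of 10 genes were higher and 0 lower, where 33.6% of 13869 genes were called higher and 24.5% lower. The median log2 fold change was 4.41 for the 10 genes in D2.1, against 0.09 for all genes, and 7.18 in D2A1, against 0.10, or 5.61 with Lox and Col11a1 set to their bounds.

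**Figure D4:**
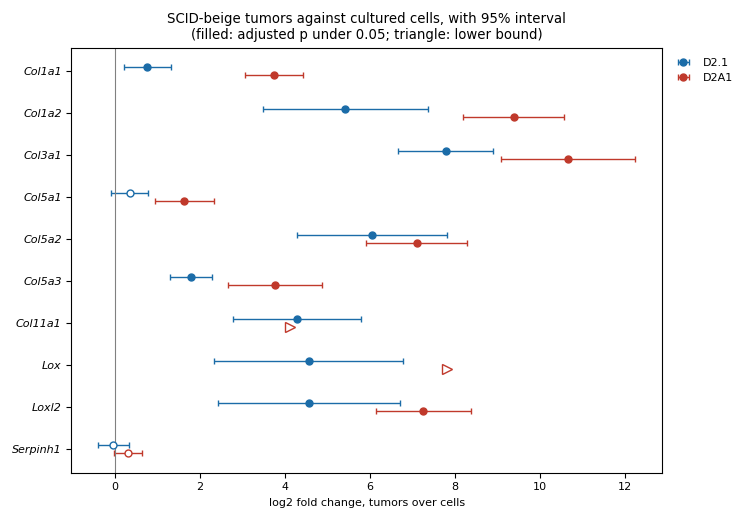
Fitted log2 fold change of SCID-beige tumors over cultured cells (x axis) for each gene (y axis), D2.1 in blue and D2A1 in red, with 95% intervals, filled points where the adjusted p was under 0.05, and open triangles for lower bounds against a culture at or below 3 counts. Col3a1 is farthest to the right among the fitted points of each line, at 7.79 and 10.67, and Serpinh1 lies close to 0.

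The interaction of line and setting, which compares the line difference in SCID-beige tumors with that in culture, was negative and called for 6 of the 10 genes. The interaction was -3.00 ± 0.39 (adjusted p = 3.8e-05) for Col1a1, -3.98 ± 0.98 (adjusted p = 0.010) for Col1a2, -2.89 ± 0.77 (adjusted p = 0.017) for Col3a1, -1.996 ± 0.52 (adjusted p = 0.015) for Col5a3, and -1.30 ± 0.37 (adjusted p = 0.027) for Col5a1. For Lox it was called at an adjusted p of 0.041, but its fitted size (-5.88) rests on a D2A1 culture with 0, 0 and 1 counts and depends on the prior count, and the call was lost under several settings. For Col1a1, Col3a1 and Col5a3 the excess of D2.1 was smaller in tumors, and for Col1a1 it went from 25.3-fold in culture to 3.14-fold. The log2 difference of Col5a1 went from 1.20 to -0.10, and that of Col1a2 from 2.76 to -1.22, neither being called in the tumors. Across 15077 genes, 4.62% had a positive and 8.18% a negative interaction past the threshold. The count fell to 2 of 10 without the third D2A1 culture, in which Col1a1 and Col5a3 were called, and to 3 with no filter on low counts. Of the other crosslinking enzymes, Loxl3 (-3.33), Loxl1 (-3.06) and Tgm2 (-2.88) had negative interactions too.

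Per length of exon sequence, Serpinh1 had the highest mean in every group except the D2.1 tumors of BALB/c mice, but this order depended on the length used. Taking CPM per kilobase of the union of exons in GENCODE M21, Serpinh1 had the highest level in D2A1 cells (316 ± 12.6 CPM per kilobase, n = 3), followed by Col5a1 (63.6 ± 6.58) and Col1a1 (13.0 ± 1.91), which did not overlap. In D2.1 cells the order was Serpinh1 (561 ± 35.9), Col1a1 (303 ± 80.4), Col5a1 (135 ± 26.2) and Col5a3 (56.6 ± 21.7). In D2.1 tumors grown in BALB/c mice, Col1a1 (762 ± 177) and Col3a1 (638 ± 143) led, followed by Serpinh1 (559 ± 67.0), and the first 2 did not differ beyond their spread. In D2.1 SCID-beige tumors, Serpinh1 (604 ± 75.2), Col1a1 (557 ± 164) and Col3a1 (491 ± 185) overlapped in spread. In D2A1 tumors of SCID-beige mice Serpinh1 (414 ± 32.2) led, followed by Col5a1 (210.8 ± 97.7) and Col1a1 (186 ± 66.4), which did not differ beyond their spread. In D2A1 tumors of BALB/c mice Serpinh1 (373 ± 23.6) led, and Col1a1 (179 ± 57.6) and Col5a1 (174 ± 52.2) did not differ beyond their spread. Col11a1 was lowest in every group by this measure, at 0.239 to 0.472 CPM per kilobase in the mean of each tumor group. By mean deposited FPKM, Serpinh1 led in both cultures but in no tumor group. In D2.1 SCID-beige tumors Col3a1 had 2669, Col1a1 2054 and Serpinh1 978. In D2A1 tumors Col1a1 and Serpinh1 had 661 and 604 in BALB/c mice and 685 and 670 in SCID-beige mice, within their spread. Col11a1 was then not lowest in D2.1 SCID-beige tumors (2.27, against 2.03 for Loxl2).

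Within the 9 D2.1 tumors, Col1a2, Col5a2, Lox and Loxl2 varied together over a wide range, with Pearson's r of log2 CPM of 0.97 for Col1a2 and Col5a2, 0.95 for Col1a2 and Lox, 0.97 for Col5a2 and Lox and 0.92 for Lox and Loxl2, given as a description over tumors of 2 hosts. Without the third SCID-beige tumor (n = 8, chosen after seeing the data) these were 0.94, 0.84, 0.92 and 0.87. Among the SCID-beige tumors the highest level exceeded the lowest by 20.1-fold for Col1a2, 24.5-fold for Lox, 23.1-fold for Loxl2 and 9.65-fold for Col5a2. These factors were set by the third tumor, and among the other 4 they were 2.71, 3.13, 6.03 and 2.03. For Col1a1 the factor was 2.19, for Col5a3 1.58 and for Serpinh1 1.30. The third SCID-beige tumor was lowest for all 4 of the variable genes, with 318 reads of Col1a2, 70 of Col5a2, 16 of Lox and 16 of Loxl2, whereas it had 41596 reads of Col1a1 and the highest level of Col5a3 of all tumors (1848 CPM). The same tumor was lowest of the 9 for the stromal markers Pi16 (2.79 CPM), Thy1 (14.6 CPM) and Clec3b (0.0582 CPM) and for the sum of the adipocyte markers. It was not lowest for Pdgfra (485 CPM), Fap (76.1 CPM) or Dpt, which had 38.1 CPM against 33.3 CPM in the fourth SCID-beige tumor. The first BALB/c tumor was highest for the 4 variable genes, for Pi16 (78.0 CPM), for Clec3b (22.7 CPM) and for the adipocyte markers. The other fibroblast markers were not highest there, at 120 CPM for Dpt against 194 CPM in the fourth BALB/c tumor and 377 CPM for Pdgfra against 639 CPM in the second. Thy1 had 136 CPM against 138 CPM in the fourth BALB/c tumor, and Fap 45.8 CPM against 85.2 CPM in the first SCID-beige tumor. The part of host stroma in these levels was not tested.

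**Figure D5:**
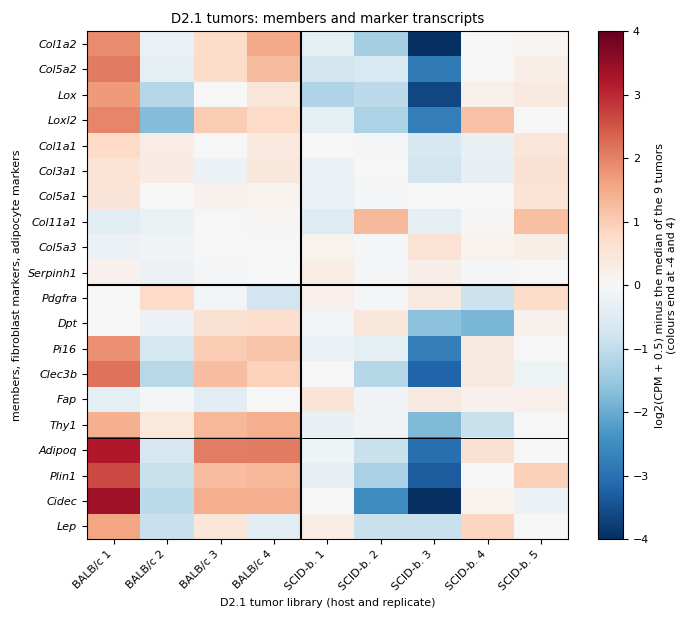
Level of the 10 genes (upper block), 6 fibroblast markers (middle) and 4 adipocyte markers (lower) in each of the 9 D2.1 tumors (x axis, by host and replicate), as log2 of CPM plus 0.5 minus the median of the 9 tumors, red above and blue below. Col1a2, Col5a2, Lox and Loxl2 are lowest in the third SCID-beige tumor and highest in the first BALB/c tumor, whereas Col5a3 and Serpinh1 stay near 0. Of the fibroblast markers, Pi16 and Clec3b have both extremes in those tumors, Thy1 only the lowest, and Pdgfra, Dpt and Fap neither.

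By the rule of nearest patterns, the genes most like each member over the 18 tumors were named by Pearson's r of log2 CPM among 13876 other genes with a mean of at least 1 CPM. As the tumors form 2 groups by line, r within the 9 D2.1 and the 9 D2A1 tumors is given too, as a description without a test. Col1a2 was most like Sfrp1 (r = 0.97, 0.99 within D2.1 and 0.75 within D2A1), Serping1 (0.96, 0.98 and 0.92) and Fstl1 (0.95, 0.96 and 0.75). Col5a2 was most like Adamts2 (0.97, 0.97 and 0.89), Slit3 (0.97, 0.95 and 0.90) and the member Lox (0.96, 0.97 and 0.76). Lox was most like Col5a2, Slit3 (0.95) and Adamts2 (0.95), and Loxl2 like Fbn1 (0.96), Tmem45a (0.94) and Adamts2 (0.94). Their r was at least 0.71 within each line for every gene named here.

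For the genes that followed the line, r was often lower within a line. Col5a3 was most like Mmp9 (r = 0.99 over 18 tumors, 0.55 within D2.1 and 0.89 within D2A1), Ppp1r14c (0.98, 0.50 and 0.78) and Hr (0.98, 0.84 and 0.60). Col1a1 was most like the member Col3a1 (0.98, 0.95 and 0.79), Tbc1d2b (0.97, 0.89 and 0.72) and Dkk3 (0.97, 0.81 and 0.75). Col3a1 was most like S1pr3 (0.98, 0.81 and 0.87), Postn (0.98, 0.79 and 0.94) and Sfrp2 (0.98, 0.82 and 0.81). Serpinh1 was most like Ap1b1 (0.95), Snhg18 (0.93) and Emc3 (0.93), Col5a1 like Khnyn (0.78), Tnfaip3 (0.78) and Fbln2 (0.77), and Col11a1 like C8g (0.77), Gm16973 (0.74) and Gm49064 (0.69). Among the members within the D2.1 tumors, Col5a3 ran against Col1a2 (r = -0.73), Col5a2 (-0.76) and Col1a1 (-0.72), values that were -0.32, -0.45 and -0.44 without the third SCID-beige tumor, whereas within the D2A1 tumors it ran with Col1a1 (0.76) and Col5a1 (0.83). The tumors of a line share 2 hosts, so these values mix host and tumor.

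In the GENCODE M21 annotation of GRCm38, Col3a1 (ENSMUSG00000026043, chr1:45311538-45349706, plus strand) and Col5a2 (ENSMUSG00000026042, chr1:45374321-45503282, minus strand) lie close together on chromosome 1. They differed in opposite directions between the lines in SCID-beige tumors. Col1a1 (ENSMUSG00000001506) lies at chr11:94936224-94953042, Col1a2 (ENSMUSG00000029661) at chr6:4504814-4541544, Col5a1 (ENSMUSG00000026837) at chr2:27886425-28039514 and Col5a3 (ENSMUSG00000004098) at chr9:20770050-20815067. Col11a1 (ENSMUSG00000027966) lies at chr3:114030540-114220718, Loxl2 (ENSMUSG00000034205) at chr14:69609068-69695834 and Serpinh1 (ENSMUSG00000070436) at chr7:99345376-99353239. Exons of Col5a1, Lox and Loxl2 overlap genes annotated on the other strand, and because the strand setting of the counting is not given in the sources used here, reads of such partners cannot be told apart.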

How the data were processed

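RNA-seq libraries of cultured cells and tumors were sequenced on an Illumina NovaSeq instrument. The submitters' processing notes name STAR and mm10, and the versions, counting tool, strand setting and annotation are not given in the sources used here. The deposited read counts are whole numbers per gene, in a table for cells (35275 genes) and a table for tumors (54532 genes), with 34519 genes in both. The deposited FPKM values equal counts over library total and gene length, but the lengths differ by over 1% between the tables for 88.1% of 11819 genes. FPKM was therefore used only for ratios within a library and as a second order of the genes within a group. Counts were used for everything else. Counts on genes without a symbol made up 0.0969% of the cell and 0.0446% of the tumor totals.

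Counts were tested with edgeR 4.0.16 in R 4.3.3 (TMM, filterByExpr, robust quasi-likelihood test), in 9 comparisons of which each used only its own groups, with Benjamini-Hochberg adjustment over all genes tested and a threshold of 0.05. The interactions used the 4 groups they involve. Log2 ratios were tested by exact 2-sided permutation, adjusted over 24 comparisons. DESeq2 1.42.0, other scalings, filters, a replicate block and leaving out each library were alternatives, and leaving out the first and the fourth D2.1 BALB/c tumors was chosen after seeing the data, as were the spread and correlations without the third D2.1 SCID-beige tumor and the culture values of genes under the filter. The scripts were tested on simulated data. Same-numbered libraries deviated together in culture (correlations 0.184 to 0.491) and in BALB/c tumors (0.100 to 0.491), from the data alone since no label gives a shared day. The criterion was a correlation above 0.1 for every number, which the other comparisons did not meet. Between the lines in SCID-beige tumors the correlations were -0.161 to 0.344. Sequences came from RefSeq, and motifs were counted with Python 3.11.15. Replicates of a group differed by more than sampling noise in all 38 pairs (chi-square per degree of freedom 4.96 to 117).

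The 10 genes and the lists of related genes and markers were chosen with earlier results of these data known. All 10 were described in every comparison, and from each list at most the 3 largest called changes per direction were named, or all where a count was 5 or fewer, with the 3 genes of highest correlation for each member. Total counts limit precision to 3 counts, equal to at most 0.221 CPM.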

Additional observations from a re-analysis of the deposited data

Results flagged for a closer look

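The line difference differed between SCID-beige tumors and culture for 6 genes, by the interaction of line and setting in edgeR's test with Benjamini-Hochberg adjustment. The log2 values were -3.00 for Col1a1, -3.98 for Col1a2, -2.89 for Col3a1, -1.30 for Col5a1, -1.996 for Col5a3 and -5.88 for Lox, the last depending on the prior count.

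In 3 of 60 sets of libraries with 4 or 5 members, 1 library stood far from the others, where chance gives about 1 in 20. Col5a1 was highest in the fifth D2.1 SCID-beige tumor, at 2198 CPM. Col5a3 was highest in the fourth D2A1 SCID-beige tumor, at 272 CPM. Reads of Col5a1 per 100 reads of Col1a1 were highest in the third D2.1 BALB/c tumor, at 45.1.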

How the results depend on the processing

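The number of the 10 genes called stayed within 1.5 times its main value in all comparisons except the interaction of line and setting, where 6 became 3 with no filter on low counts. Leaving out single libraries gave 6 to 7 in culture, 4 to 6 in BALB/c tumors, 5 to 7 in SCID-beige tumors, 7 to 8 for D2.1 and 9 for D2A1 tumors against culture, 0 for hosts and their interaction with line, and 2 to 7 for the interaction of line and setting, with 2 without the third D2A1 culture. The 4 ratios called remained 4 in number. The replicate block gave 5 in BALB/c tumors and 8 in SCID-beige tumors, where same-numbered libraries did not all deviate together and Col1a2 was added (-1.60, adjusted p = 0.033). The block changed no call among the 10 genes in culture.

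Values near 0 changed sign without being called. Col1a2 between the lines in BALB/c tumors was -0.038 without TMM factors, -0.12 with the replicate block, -0.83 without the first and the fourth D2.1 tumors and -0.27 to 0.31 without single libraries. Serpinh1 in D2.1 tumors against culture was 0.12 without TMM factors and -0.16 to 0.010 without single libraries. Without single libraries, Col5a1 between the lines in SCID-beige tumors was -0.28 to 0.17, Col1a1 between hosts in D2A1 tumors -0.29 to 0.11, and the log2 ratio of Serpinh1 to Col1a1 between those hosts -0.31 to 0.12. The interaction of line and host was -0.12 to 0.34 for Col3a1, -0.14 to 0.56 for Col5a3 and -0.019 to 0.12 for Serpinh1 without single libraries. Without the first and the fourth D2.1 BALB/c tumors it was -0.13 for Col3a1, -0.21 for Lox, -0.10 for Loxl2 and -0.077 for Serpinh1. The cause was not tested.

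Over all genes, 133 host calls in D2.1 tumors became 588 with DESeq2, 275 with no filter, 14 with the replicate block, 261 in 1 fit of all tumors, 11 without the first and the fourth BALB/c tumors and 26 to 314 without single libraries. The 170 in D2A1 tumors became 517, 0 with the block and 27 to 172. The 3 for the interaction of line and host became 105 with DESeq2, 6 with its size factors, 7 with no filter, 0 without both tumors and 0 to 12. Library totals without TMM factors moved the median of all genes by -0.13 in culture and 0.15 for D2.1 tumors against culture. Depth limits Lox, Loxl2, Col5a2 and Col11a1 in culture, where each had at most 19 counts. In D2A1 culture Col3a1 had 0 to 12, Col1a2 7 to 18 and Loxl2 1 to 5 counts. The fitted sizes of these genes against that culture, and in the interaction of line and setting, thus rest on few reads.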
